A study of Homo sapiens with 8 samples.

Results

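Histone genes were examined in the triple-negative breast cancer cell line MDA-MB-231 (human) treated with brazilin, methylated brazilin or acetylated brazilin. Members were the genes whose symbol starts with H1-, H2A, H2B, H3-, H3C, H4C, H4- or MACROH2A in any of 3 deposited tables, each of which sets 1 compound against untreated cells. They came to 32 of the 2998 genes listed in at least 1 table, with 30 in the brazilin table of 2885 genes, 2 in the acetylated brazilin table of 193 genes and 0 in the methylated brazilin table of 11 genes. Brazilin is the phenolic precursor of the red dye of sappanwood and brazilwood. The 8 RNA samples formed 4 groups of 2, namely untreated cells and cells that received the unmodified, the methylated or the acetylated compound. The dose was 20 µM from seeding onwards, renewed every day, and RNA was taken at 48 h. The labels describe the untreated cells as cultured without treatment and do not mention solvent. Nothing says that the 2 samples of a group were grown apart, so the q-values may measure technical spread only. Fewer cells of a kind and less RNA per cell cannot be told apart in such bulk RNA, and FPKM is a share of the sequenced RNA.

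The tables hold the authors' group means in FPKM (fragments a level scaled to transcript length and library size), a log2 fold change of treated over untreated and a q-value, for genes called significant only. All such values below were copied from the authors' deposited table of each compound. There are no values per sample, so the spread between replicates is seen only through the q-value, and the depth is unknown. Intervals are 95% intervals from an error derived from the q-value, and this error is an upper bound where the q-value comes from a Wald test without shrinkage. The lowest FPKM printed in any table is 0.01, and a gene at that value is given no fold, although its deposited log2 value enters the medians. Of 19 markers of the cell line and of other cell types, 3 stood in a table, which leaves the rest with no value here. The breast cancer line's CD44 and CAV1 were at 132 and 180.2 FPKM in untreated cells and 226 and 276 FPKM with brazilin, and the endothelial marker PECAM1 was at 1.34 FPKM untreated and 0.905 FPKM with brazilin.

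Histones package DNA into nucleosomes, in which DNA wraps around a core of H2A, H2B, H3 and H4 proteins and the linker histone H1 sits where the DNA enters and leaves. Replication-dependent histone genes lie in clusters, lack introns, are switched on in S phase and give mRNAs that end in a conserved stem-loop in place of a poly(A) tail. That stem-loop is bound by SLBP, and it ties the life of the mRNA to DNA synthesis. Variant histone genes, such as those of H3.3, H2A.Z and macroH2A, are mostly transcribed through the whole cell cycle into polyadenylated mRNA. Some replication-dependent genes can also give longer, polyadenylated transcripts, which are known to accumulate in cells that leave the cycle or differentiate. The sources used here do not say whether the libraries were selected for poly(A) RNA, and the part of each mRNA form in the FPKM values was not tested.

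The stem-loops of 8 members are shown because this element is typical of replication-dependent mRNA. They were picked from the 13 members of the brazilin table with such a hairpin in a transcript model. H2BC12 and H1-2 have none in a model and could not be shown. Capitals mark the 16-base hairpin, 6 bases of stem, 4 of loop and 6 of stem, with 5 bases on either side in lower case, read 5′ to 3′ on the coding strand from GENCODE release 29 transcripts (GRCh38).
H2AC18: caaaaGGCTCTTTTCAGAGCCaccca
H2AC6: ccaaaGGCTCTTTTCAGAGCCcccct
H2BC21: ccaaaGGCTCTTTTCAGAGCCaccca
H2BC18: ccaaaGGCTCTTTTCAGAGCCacttc
H2BC4: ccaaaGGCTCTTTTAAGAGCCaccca
H2BC5: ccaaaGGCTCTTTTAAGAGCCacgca
H4C15: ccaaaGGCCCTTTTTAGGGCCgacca
H4C8: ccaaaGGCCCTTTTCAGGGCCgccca
These hairpins lie in the 3′ untranslated region, at chr1:149842223-149842238 for H2AC18, chr6:26124669-26124684 for H2AC6, chr1:149886188-149886203 for H2BC21, chr1:149811885-149811900 for H2BC18, chr6:26123472-26123487 for H2BC4, chr6:26158587-26158602 for H2BC5, chr1:149860769-149860784 for H4C15 and chr6:26285131-26285146 for H4C8. Of the 27 replication-dependent members in the brazilin table, 13 have a transcript model that holds such a hairpin after its stop codon. With at least 60 bases after the stop codon, 13 of 15 do. Among the 41 replication-dependent genes that were not listed with brazilin, 16 have such a model. With at least 60 bases after the stop codon, 15 of 16 of those genes do. The hairpin therefore does not set the listed genes apart from the others of their kind. Many other models stop at the coding sequence, so that no match there says only that the model lacks these letters. Only fully paired stems of GG, then C or T bases, then T were accepted. The loops had to be TT, then T or C, then A, C or T. Other stems and loops could not be found, so the letters that follow are partly set by the search. Across 4 hairpin forms the H2A, H2B and H3 members shared one stem and the H4 members another, while the loop was TTTC in most, TTTA in H2BC4 and H2BC5 and TTTT in H4C14 and H4C15. Over all 19940 coding genes of the annotation, 33 (0.165%) held a match after a stop codon, and 31 of these were histone genes. The search was written for histone stem-loops, so the histone share of the matches is partly set by it. The 31 include H2AX and H3-4, which do not have replication-dependent names. Of the 14 members of any table with a hairpin, 11 have a model that runs on for more than 100 bases past it. Those models do not end at the stem-loop.

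Every one of the 30 histone genes in the brazilin table was higher with brazilin than in untreated cells. None was lower. Of these genes, 4 stood at the lowest printed value, 0.01 FPKM, in untreated cells and could be listed only as higher. All 50 listed genes at that value in untreated cells were higher. Of all 2885 listed genes, 47.6% were higher and 52.4% lower, with a median log2 fold change of -0.51, against a median of 3.10 for the histone genes. For the 26 genes above 0.01 FPKM in untreated cells the log2 fold changes ran from 0.61 for H1-10 to 5.79 for H2BC6, with a median of 2.91. A log2 fold change of at least 2 was found for 26 of the 30 (86.7%), against 7.04% of all genes listed, and histone genes made up 12.8% of the 203 genes that rose that far. The 26 with such a change include the 4 genes at 0.01 FPKM in untreated cells. Of the 23 genes that rose that far and reached at least 10 FPKM with brazilin, 13 were histone genes (56.5% of the 23, and 43.3% of the histone genes). The summed level of the 30 genes was 259.87 FPKM in untreated cells and 1887 FPKM with brazilin, a ratio of 7.26. H2AC18, H2BC12 and H1-2 made up 26.0%, 21.9% and 18.5% of the sum with brazilin.

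**Figure D1:**
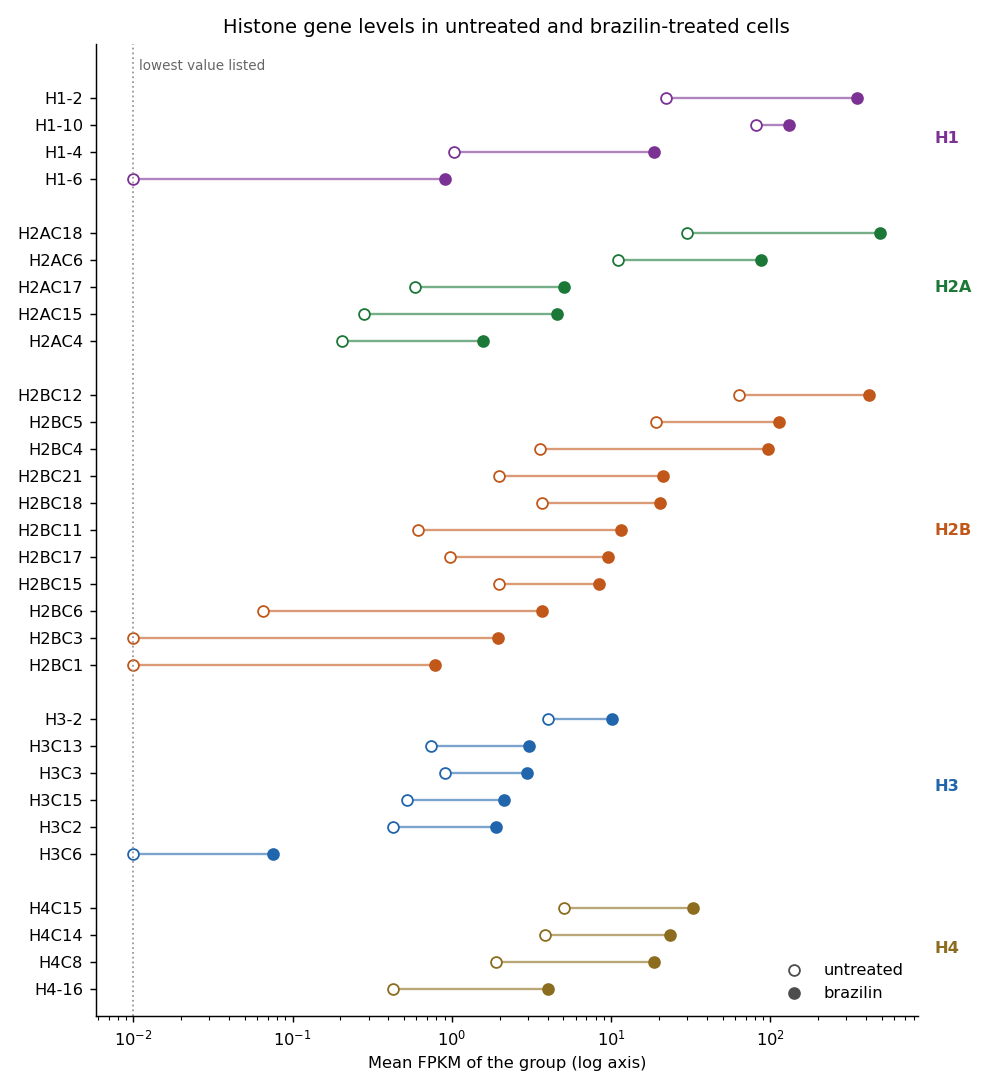
Mean FPKM of each of the 30 histone genes in untreated cells (open circles) and brazilin-treated cells (filled circles) on a log axis, grouped by histone class, with no error because the tables hold group means only. Every filled circle lies to the right of its open circle, and 4 open circles stand at the lowest listed value of 0.01 FPKM.

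RefSeq names 94 protein-coding genes that match the same rule, and the brazilin table holds 31.9% of them, against 14.3% of all 20056 RefSeq protein-coding genes. The number of genes the authors tested is not known, so these shares do not separate genes that missed the criteria from genes that were not measured. Of 68 genes with replication-dependent names 27 were listed (39.7%), and of 26 variant or other histone genes 3 were listed (11.5%, near the 14.3% of all genes). The 27 had a median log2 fold change of 3.16 and a summed level of 174.72 FPKM untreated and 1744 FPKM with brazilin. By class the listed shares were 40.0% for H1, 17.9% for H2A, 47.8% for H2B, 33.3% for H3 and 26.7% for H4. The share of H2A is close to the 14.3% of all genes. Genes of common variants, among them H2AZ1, H2AZ2, H2AX, H2AJ, MACROH2A1, MACROH2A2, H3-3A and H3-3B, were in no table and have no values here. Whether they differ from the replication-dependent genes cannot be read from that.

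**Figure D2:**
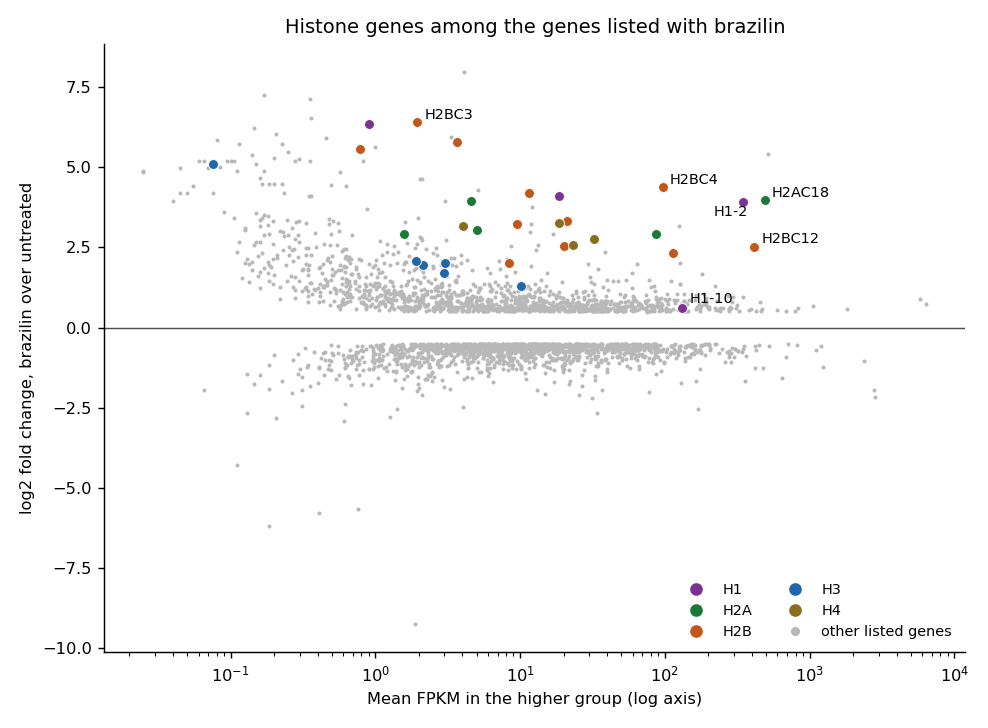
Log2 fold change with brazilin against the mean FPKM of the higher group (log axis) for all 2885 listed genes, histone genes coloured by class. All histone genes lie above 0, and 13 of the 23 genes with a log2 fold change of at least 2 and at least 10 FPKM with brazilin are histone genes.

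H2B, which pairs with H2A in the nucleosome core, had the most members, 11 of 23 RefSeq genes, all higher with a median log2 fold change of 3.33. H2BC12 (RefSeq span chr6:27138293-27146858 on GRCh38.p14, as for the spans below) was the most abundant, at 63.7 FPKM in untreated cells and 414 FPKM with brazilin (log2 2.52, interval 2.39 to 2.66). H2BC5 went from 19.1 to 113 FPKM (log2 2.33, interval 2.11 to 2.55). These 2 genes therefore led the class in both groups, and their intervals overlap.

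H2BC4 (chr6:26113170-26123926) had the largest precise change of the class, from 3.58 to 96.4 FPKM (log2 4.39, interval 4.11 to 4.68, a 21.0-fold change). H2BC21 rose from 1.98 to 21.2 FPKM (log2 3.33, interval 3.09 to 3.58). For H2BC18 the levels were 3.67 and 20.2 FPKM (log2 2.55, interval 1.91 to 3.19). The interval of H2BC4 lies above those of H2BC21, H2BC18, H2BC12 and H2BC5, so that the order of fold changes is not the order of levels. H2BC12L, a gene on chromosome 21, and LOC102724334 each share 98.95% of the coding bases of H2BC12, and reads may have been divided among them.

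The other 6 H2B genes were below 12 FPKM with brazilin. H2BC11 went from 0.615 to 11.5 FPKM (log2 4.19, interval 3.01 to 5.37), H2BC17 from 0.975 to 9.51 FPKM (log2 3.24) and H2BC15 from 1.98 to 8.36 FPKM (log2 2.00). H2BC6 went from 0.065 to 3.66 FPKM, with a wide interval of 2.36 to 9.22 on the log2 scale. H2BC3 was listed at 0.01 FPKM untreated and 1.94 FPKM with brazilin. H2BC1, known as a testis-specific H2B gene, was listed at 0.01 and 0.785 FPKM.

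H2A had 5 members of 28 RefSeq genes, all replication-dependent and all higher with a median log2 fold change of 3.04. H2AC18 (chr1:149842218-149842750) reached the highest level of all histone genes, from 30.1 to 489.7 FPKM (log2 3.97, interval 3.76 to 4.18, a 15.7-fold change). H2AC19, in the same cluster, has an identical coding sequence and was not listed, so the value of H2AC18 is uncertain as that of a single gene. H2AC6 (chr6:26124172-26124690) rose from 11.1 to 87.0 FPKM (log2 2.92, interval 2.61 to 3.23), which does not overlap the interval of H2AC18.

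The remaining H2A genes were below 1 FPKM in untreated cells. H2AC17 went from 0.59 to 5.03 FPKM (log2 3.04, interval 1.58 to 4.50) and H2AC15 from 0.28 to 4.56 FPKM (log2 3.94, interval 2.16 to 5.73). H2AC4 was at 0.205 and 1.57 FPKM with a q-value of 0.0214 (log2 2.91, interval 0.43 to 5.39). These intervals are wide and do not rank the 3 genes.

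Linker histone genes gave 4 members of 10, with fold changes that differed widely. H1-2 (chr6:26055740-26056470), a replication-dependent linker histone found in most cells, rose from 21.9 to 348 FPKM (log2 3.91, interval 3.52 to 4.31, a 15.1-fold change). H1-4, another of that kind, rose from 1.03 to 18.7 FPKM (log2 4.11, interval 3.53 to 4.69). Their intervals overlap, although their levels with brazilin lie far apart.

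H1-10 (chr3:129314771-129316286), a replication-independent linker histone also called H1x, was the most abundant histone gene of the table in untreated cells and had the smallest change, 81.1 and 132 FPKM (log2 0.61, interval 0.48 to 0.74). It held 31.2% of the summed FPKM of the 30 genes in untreated cells and 6.98% with brazilin. Its interval lies below those of H1-2 and H1-4. H1-6, the testis-specific linker histone H1t, was listed at 0.01 FPKM untreated and 0.905 FPKM with brazilin.

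H3, the core histone whose tail carries many of the best-studied modifications, had 6 members of 18 and the lowest levels of any class, summing to 6.60 FPKM untreated and 20.3 FPKM with brazilin. H3-2, which RefSeq now names H3-7, rose from 4.005 to 10.2 FPKM (log2 1.31, interval 1.06 to 1.56). It shares 98.8% of its coding bases with H3C13, which was at 0.735 and 3.03 FPKM (log2 2.02, q = 0.0233 in the authors' deposited table). H3C3 (0.9 and 2.97 FPKM), H3C2 (0.43 and 1.91 FPKM) and H3C15 (0.525 and 2.12 FPKM) had q-values of 0.0459, 0.0468 and 0.0425, close to the limit of 0.05. H3C15 has the same coding sequence as H3C14, which was not listed, so its value as a single gene is uncertain. H3C6 was listed at 0.01 and 0.075 FPKM. Among the H3 genes H3-2 had a standard error of 0.127 on the log2 scale, and the other 5 had errors of 0.847 to 2.32.

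H4, the partner of H3 in the core, had 4 members of 15, all higher within a narrow range of 2.57 to 3.25 on the log2 scale. H4C15 went from 5.03 to 32.5 FPKM (log2 2.76, interval 2.39 to 3.12), H4C14 from 3.85 to 23.3 FPKM (log2 2.57, interval 1.81 to 3.34) and H4C8 from 1.90 to 18.5 FPKM (log2 3.25, interval 2.31 to 4.18). H4-16, a lone gene on chromosome 12, went from 0.43 to 4.03 FPKM (log2 3.16, interval 1.09 to 5.23). All 4 intervals overlap. H4C14 and H4C15 have identical coding sequences and 250 of 250 identical bases before their start sites, so their separate values are uncertain, and their summed level was 8.88 FPKM untreated and 55.8 FPKM with brazilin, a ratio of 6.29.

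**Figure D3:**
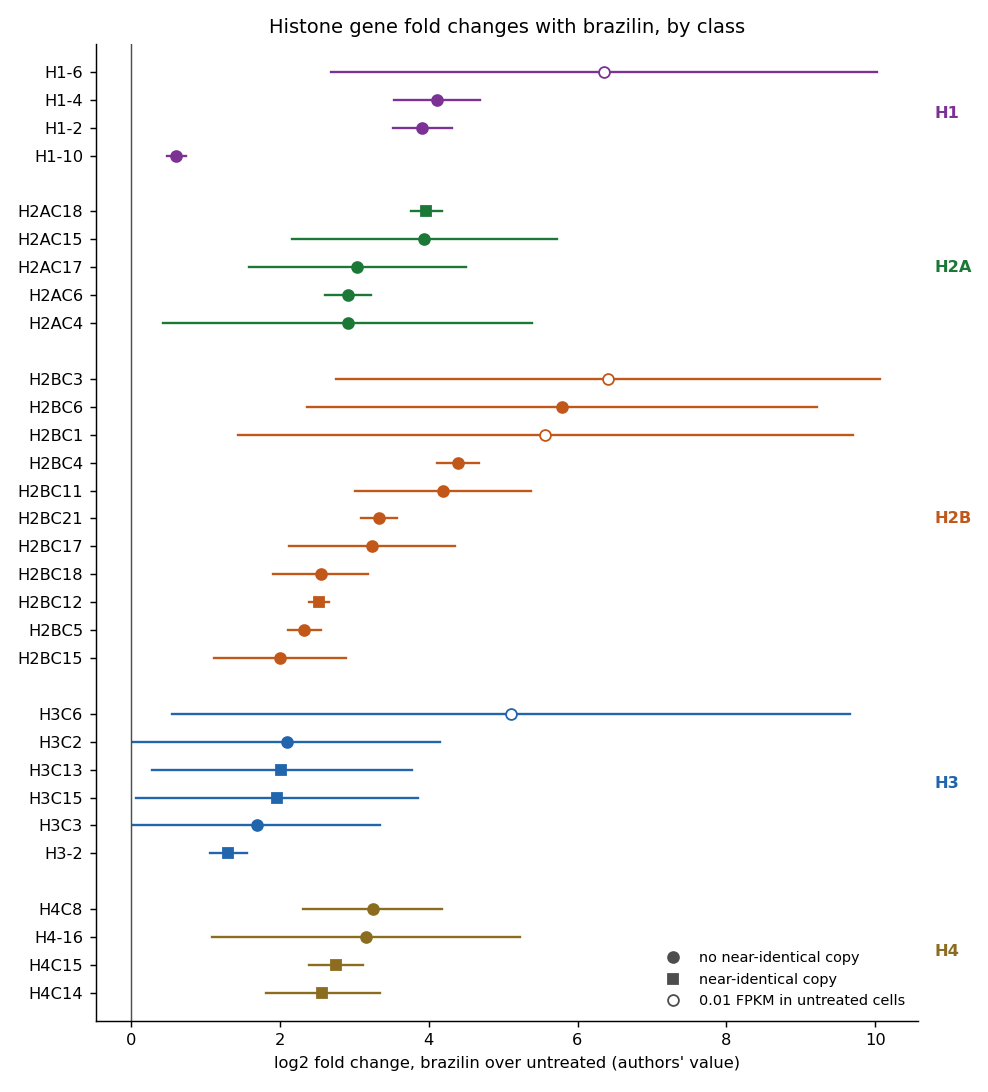
Log2 fold change with brazilin (x axis) for each histone gene by class, with 95% intervals derived from the authors' q-values, squares for genes with a near-identical copy and open symbols for genes at 0.01 FPKM in untreated cells. Every interval excludes 0 by construction, because all listed q-values are under 0.05, and the interval of H1-10 is the lowest of the H1 class.

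Histone mRNAs are short, and other genes with short models also tended to be higher with brazilin. The median length of 1 GENCODE model per gene was 650 bases for the histone genes and 3534 bases for all listed genes. Of 550 other genes with models of up to 1942 bases, 71.6% were higher with a median log2 fold change of 0.64, against 25 of 25 histone genes with a median of 3.04. Of 68 other genes whose models all have 1 exon, 73.5% were higher with a median of 0.78, against 21 of 21 histone genes with a median of 3.04. The part of transcript length in the histone result was not tested further. Low levels move with the largest values, since 4 histone genes (13.3%) stood at 0.01 FPKM in untreated cells against 1.73% of all listed genes.

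By position, 20 of the 55 protein-coding histone genes of the large cluster on chromosome 6 were listed (36.4%). The counts were 7 of the 11 in a cluster on chromosome 1 (63.6%), 0 of 3 in a smaller cluster there, and 3 of 25 elsewhere. These are to be read against the 14.3% of all RefSeq protein-coding genes, which the share elsewhere is near. The smaller cluster has too few genes for a share. The median log2 fold change was 3.58 for the chromosome 6 members, or 3.14 without the 4 genes at 0.01 FPKM, and 2.57 for those of the chromosome 1 cluster. Summed levels had the opposite order of ratios, at 128.44 FPKM untreated and 1149 FPKM with brazilin for chromosome 6 (a ratio of 8.94) and 45.86 and 592 FPKM for chromosome 1 (a ratio of 12.9). H2AC18 alone gave 30.1 and 489.7 FPKM of the chromosome 1 sums. The chromosome 1 ratio is therefore mostly that of 1 gene, whose value as a single gene is uncertain. The chromosome 6 sums also rest largely on few genes. H2BC12, which has near-identical copies, gave 63.7 and 414 FPKM of them, and H1-2 gave 21.9 and 348 FPKM. Listed genes stand next to genes with no values in both clusters.

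**Figure D4:**
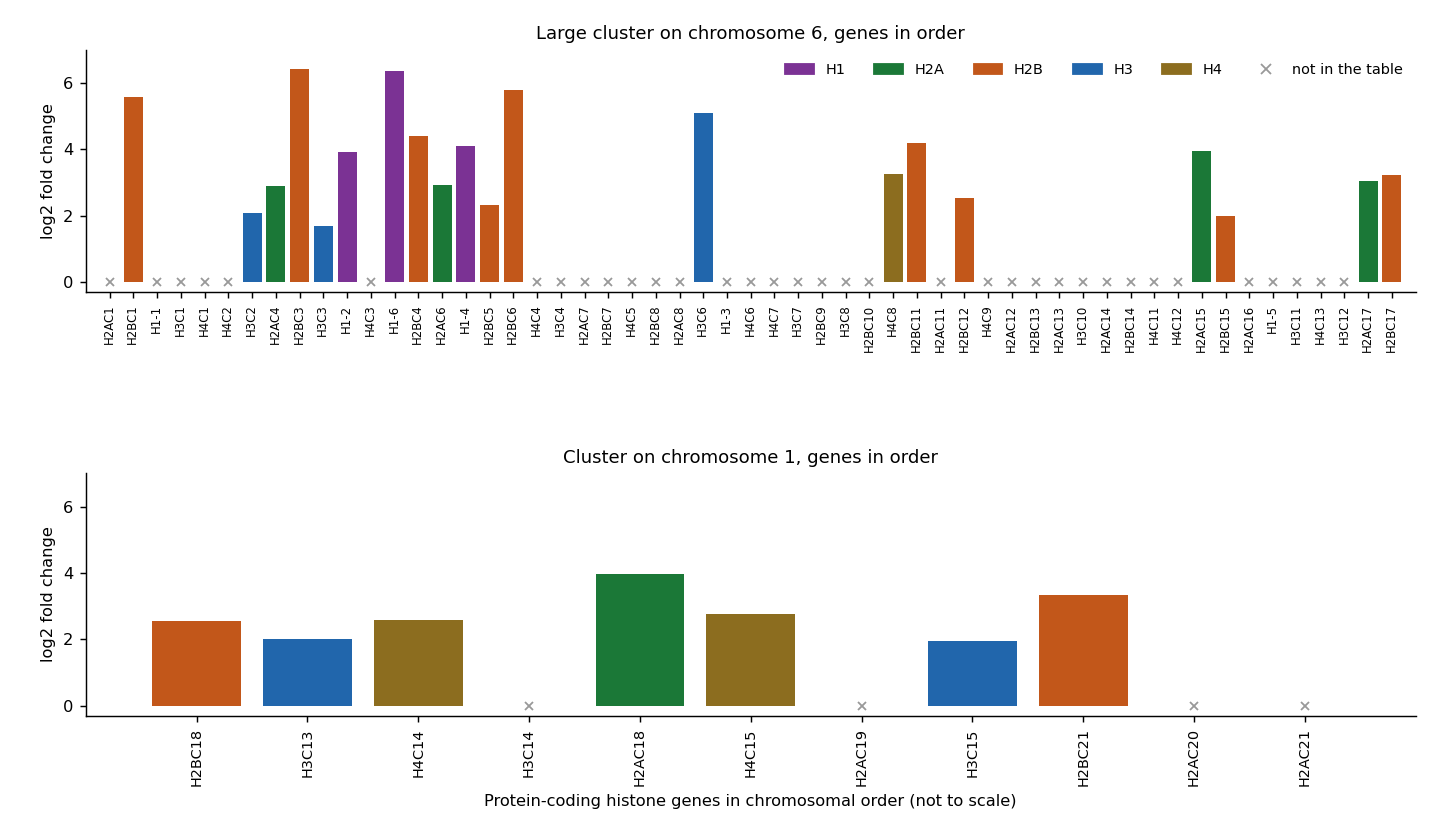
Log2 fold change with brazilin (y axis) of the protein-coding histone genes in chromosomal order, not to scale, for the large cluster on chromosome 6 and the cluster on chromosome 1. Bars are coloured by class and crosses mark genes that are not in the table, whose change is unknown. The 4 genes at 0.01 FPKM in untreated cells (H3C6, H2BC1, H1-6 and H2BC3) have unmarked bars at their deposited values, which are imprecise. In the chromosome 6 cluster, where 20 of 55 genes (36.4%) are listed, the stretch from H3C2 to H2BC6 has H4C3 as its only gap. That stretch was picked after the values were seen, and whether listed genes lie together was not tested.

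H2A and H2B genes often sit head to head, so that a short stretch of DNA is the promoter of both. RefSeq places 12 such pairs within 500 bases, with gaps of 193 to 247 bases. Both genes were listed in 3 pairs, 1 gene in 4 pairs, which was the H2B gene each time, and none in 5 pairs. Of replication-dependent genes, 61.1% of H2B and 29.4% of H2A genes were listed, against 14.3% of all RefSeq protein-coding genes. The H2B genes listed without their partner are to be read against these shares, and a trait of the pairs was not tested. In the pair of H2BC4 and H2AC6 the log2 fold changes of 4.39 and 2.92 have intervals that do not overlap, while their levels with brazilin, 96.4 and 87.0 FPKM, were close. The pair of H2AC17 and H2BC17 had 3.04 and 3.24, and that of H2AC15 and H2BC15 had 3.94 and 2.00, with overlapping intervals in both.

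The 250 bases before the start site are shown for H2BC12, H2AC18 and H1-2, the 3 histone genes with the highest levels with brazilin, and for H2AC6, which shares its upstream stretch with H2BC4, from RefSeq on GRCh38.p14. The first covers the 245 bases between the start sites of H2BC4 and H2AC6. Capitals mark matches on either strand to CCAAT (the CCAAT box), TATAAA (the TATA box) or ATTTGCAT (the octamer bound by OCT1), and some TATAAA matches overlap on the 2 strands.
H2AC6: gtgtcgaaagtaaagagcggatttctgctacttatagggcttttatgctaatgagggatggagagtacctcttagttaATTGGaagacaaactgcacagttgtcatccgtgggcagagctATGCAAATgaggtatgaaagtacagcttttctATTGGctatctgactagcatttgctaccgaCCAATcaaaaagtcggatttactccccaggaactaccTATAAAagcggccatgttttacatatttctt
H2BC12: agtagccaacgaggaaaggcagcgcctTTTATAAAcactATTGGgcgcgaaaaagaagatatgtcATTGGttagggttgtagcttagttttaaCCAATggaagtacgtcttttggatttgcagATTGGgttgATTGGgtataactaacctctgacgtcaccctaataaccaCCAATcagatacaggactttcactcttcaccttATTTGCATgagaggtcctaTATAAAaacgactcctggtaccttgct
H2AC18: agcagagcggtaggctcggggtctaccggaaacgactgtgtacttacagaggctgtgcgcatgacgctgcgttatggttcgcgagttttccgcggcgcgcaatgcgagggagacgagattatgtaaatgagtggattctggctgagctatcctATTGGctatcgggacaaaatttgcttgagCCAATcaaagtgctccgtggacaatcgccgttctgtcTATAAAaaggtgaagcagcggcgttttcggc
H1-2: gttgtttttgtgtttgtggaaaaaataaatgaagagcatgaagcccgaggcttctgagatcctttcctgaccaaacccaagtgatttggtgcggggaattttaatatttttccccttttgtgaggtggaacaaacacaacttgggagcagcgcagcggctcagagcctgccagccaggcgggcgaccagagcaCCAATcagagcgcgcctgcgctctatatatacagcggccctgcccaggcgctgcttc
These stretches are chr6:26123922-26124171 on the plus strand for H2AC6 and, on the minus strand, chr6:27146859-27147108 for H2BC12, chr1:149842751-149843000 for H2AC18 and chr6:26056471-26056720 for H1-2. CCAAT was found before 25 of the 30 genes (83.3%), against 33.0% of all 27305 promoters. TATAAA was found before 21 (70.0%, against 11.1%) and ATTTGCAT before 12 (40.0%, against 1.66%). The octamer stood before 9 of the 11 H2B members and 3 of the 5 H2A members. Matches on either strand were counted, so 1 site between 2 head-to-head genes counts for both, and the counts are of genes, not of sites. The octamers of H2AC6 and H2BC4 are 1 site, as are those of H2AC17 and H2BC17. For H2BC4 and H2BC17 the only TATAAA match lies near the start of the partner gene. The only match of H4-16 is at the far end of the 250 bases, and those of H2BC6 and H3C6 also lie far from the start site. The TATAAA counts are therefore matches of letters, and whether they act as TATA boxes was not tested. Among replication-dependent genes that were not listed and have a promoter entry the shares were close to those of the listed ones, at 30 of 36 for CCAAT against 23 of 27, 23 of 36 against 19 of 27 for TATAAA and 14 of 36 against 12 of 27 for ATTTGCAT.

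Genes that make, process and handle histone mRNA and protein were described by 4 lists, to be read against all genes, of which 14.3% of RefSeq protein-coding genes were listed with brazilin and 47.6% of those listed were higher (median log2 -0.51). Of 43 genes of histone mRNA synthesis and 3′ end processing 7 were listed (16.3%), 3 higher and 4 lower (median log2 -0.53), which is near that background. SRRT, the cap-binding partner ARS2, rose from 57.5 to 94.3 FPKM (log2 0.63, interval 0.52 to 0.73). XRN1, an exonuclease that degrades decapped RNA, was lower with brazilin, at 4.18 FPKM against 6.18 FPKM (log2 -0.71, interval -0.90 to -0.52). TUT4, a uridylyltransferase, fell from 9.40 to 6.38 FPKM (log2 -0.66). LSM10 and ZNF473, which belong to the U7 ribonucleoprotein machinery that cleaves histone pre-mRNA, were higher by 0.63 and 0.54 on the log2 scale, while CASP8AP2, the processing factor FLASH, was lower at 4.49 and 3.31 FPKM. These 3 were named after their values were seen. NPAT, the coactivator of histone genes, and SLBP were not listed.

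Histone chaperones and deposition factors gave 10 of 43 listed genes (23.3%, against 14.3% of all genes), 6 higher and 4 lower (median log2 0.51, against -0.51). ATRX, which deposits H3.3 together with DAXX, fell from 12.6 to 6.33 FPKM (log2 -1.15, interval -1.29 to -1.01). NUCKS1, an abundant chromatin protein, fell from 119.55 to 66.3 FPKM (log2 -0.94, interval -1.05 to -0.83). IPO4, an importin that carries H3 and H4 into the nucleus, rose from 19.6 to 31.0 FPKM (log2 0.57, interval 0.43 to 0.70).

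Histone-modifying enzymes and acetyl-lysine readers gave 9 of 69 (13.0%), 3 higher and 6 lower (median log2 -0.53), near the 14.3% and -0.51 of all genes. BRD2, a reader of acetylated histones, rose from 104 to 165 FPKM (log2 0.59, interval 0.50 to 0.68). KMT2C and KMT2A, methyltransferases of H3, fell by 0.67 and 0.52 on the log2 scale. DNA replication and S phase genes gave 5 of 49 (10.2%, against 14.3% of all genes), 4 higher and 1 lower (median log2 0.55). MCM5, a subunit of the replicative helicase, rose from 23.1 to 35.6 FPKM (log2 0.54, interval 0.39 to 0.68). CDC25A, a phosphatase that activates cyclin-dependent kinases, rose from 8.67 to 13.5 FPKM (log2 0.55). WEE1, a kinase that holds back mitosis, fell from 14.9 to 10.8 FPKM (log2 -0.55, interval -0.72 to -0.39). No listed member of these 4 lists rose by more than 1.17 on the log2 scale, a value below that of 29 of the 30 histone genes.

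**Figure D5:**
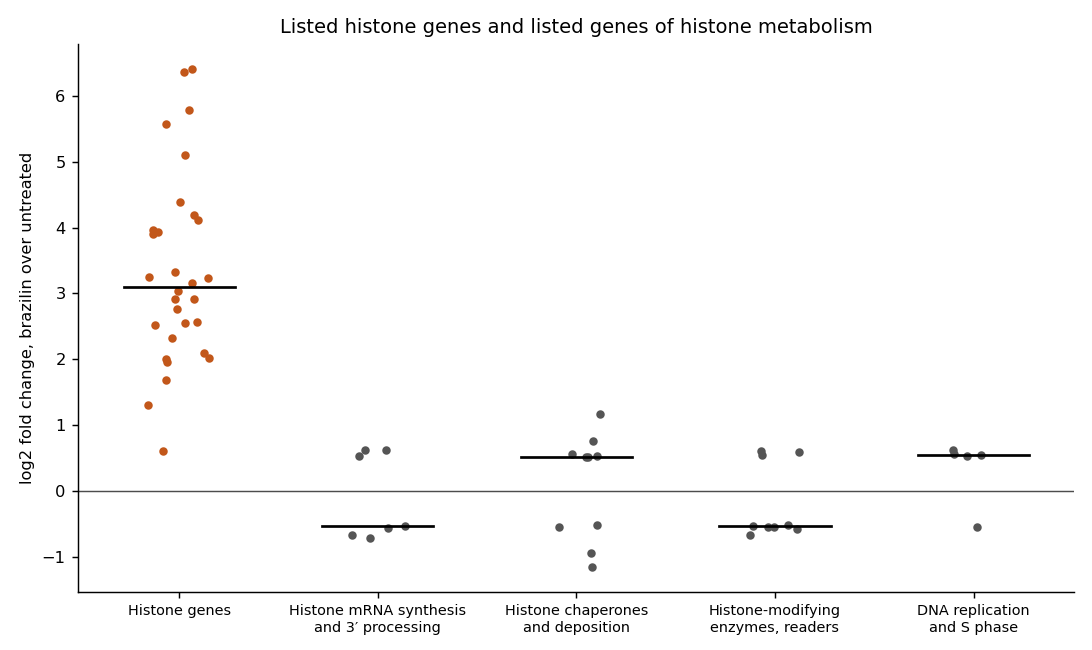
Log2 fold change with brazilin (y axis) of the listed histone genes and of the listed members of 4 gene lists, 1 point per gene, with a bar at the median. The histone genes have a median of 3.10, and the medians of the other lists lie between -0.53 and 0.55. Genes that are not in the table have no point, and the gap around 0 reflects the limit of 0.5 on listed changes.

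With acetylated brazilin 2 histone genes were listed, in opposite directions, where 62.2% of all 193 listed genes were higher and 37.8% lower. H4C12 was at 0.01 FPKM in untreated cells and 3.42 FPKM with acetylated brazilin, and H4C11 at 3.57 and 0.01 FPKM. Both encode H4, have identical coding sequences and lie near each other on chromosome 6. Their summed level was 3.58 FPKM untreated and 3.43 FPKM treated, a ratio of 0.958, and reads of the one cannot be told apart from reads of the other within the coding sequence. The q-values in the authors' deposited table were 0.00127 for H4C12 and 0.00153 for H4C11. Neither gene was in the brazilin table. ATRX, which was the only gene of the 4 lists in this table, fell from 12.6 to 8.48 FPKM (log2 -0.56, interval -0.68 to -0.44).

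No histone gene was in the methylated brazilin table, in which 3 of 11 genes were higher (27.3%) and 8 lower (72.7%). The 3 compounds were compared at the same dose and time and against the same untreated samples. Since 0 histone genes stood in more than 1 table, no difference between compounds could be computed for any of them, and no interval of such a difference can be given. Absence from a table means that a gene missed the limits of q under 0.05 or an absolute log2 fold change of 0.5, or was not tested, and it does not show that the methylated or acetylated compound left the histone genes unchanged.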

How the data were processed

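RNA was measured in 8 samples in 4 groups of 2. Per the labels' protocols, total RNA was extracted with Trizol and BGI Americas prepared the libraries. Per the submitters' processing notes, the tools were DESeq2, RSEM, Bowtie, StringTie and HISAT and the builds mm10, hg38 and GRCh38, with no version, role or order given. The deposited FPKM values are group means by the authors, in steps of 0.005 from 0.01 upwards. The log2 fold changes deposited by the authors set treated against untreated cells, with absolute values of at least 0.5. The deposited q-values (adjusted p-values of the authors' test) are all under 0.05. Library strand and depth are not given in the sources used here.

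No test was run on samples, because no column holds values per sample. For each gene the standard error was the absolute log2 fold change over the normal quantile of the q-value taken as a two-sided p-value, with 1e-300 in place of a q-value of 0. The code was run on simulated data in which the upper bound holds by construction. That run does not test whether the authors' q-values give valid intervals. Scripts used Python 3.11.15, pandas 2.3.3 and scipy 1.17.1. Counts and medians of histone genes are set beside those of all listed genes. All 32 histone genes matched RefSeq (GRCh38.p14) by gene ID, of which H3-2 and H4-16 carry newer names there. H1-1 to H1-5, H4-16 and genes named H2AC, H2BC, H3C or H4C followed by a number alone (thus not H2BC12L) were taken as replication-dependent. Near-identical copies had at least 98% identity over at least 80% of the coding sequence (BLAST+ 2.17.0, GENCODE release 29). Histone genes at 1 FPKM or more in the higher group or at 0.01 FPKM in either are named, which covers all 32, as are the 3 members of each list with the smallest q-value with brazilin and the list members in other tables. The members and lists were chosen with earlier results of these data known.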

Additional observations from a re-analysis of the deposited data

How the results depend on the processing

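The brazilin counts were taken under 13 other settings, 11 of them planned and 2 chosen after seeing the data. Most only take subsets of 30 genes that are all higher, so they could not give a lower one and say nothing about the stability of the direction. In 12 settings the number higher was 22 to 30, the settings being stricter limits on the q-value (0.01 and 0.001), on the fold change (log2 of 1 and 2) or on FPKM (at least 1), leaving out genes at 0.01 FPKM or with a near-identical copy, the ratio of FPKM means as fold change with pseudocounts of 0, 0.1 and 1, matching of older symbols, and replication-dependent names alone. Among genes with a stem-loop in a GENCODE model, a setting added after seeing the data, 13 were higher, because fewer genes enter. The median log2 fold change of 3.10 was 2.91 to 3.25 in 12 settings and 2.13 with a pseudocount of 1 FPKM, which by construction shrinks the fold of genes at low levels. For acetylated brazilin the counts of 1 higher and 1 lower became 0 and 0 at a q-value under 0.001, without genes at 0.01 FPKM and without near-identical copies, and 0 higher and 1 lower among genes with a stem-loop model. The median of its 2 genes, 0.03, was -0.03 and -0.02 by the ratio of FPKM means and has no meaning beyond the opposite signs. The count of 0 for methylated brazilin was 0 in all settings. The covariance of the shared control and the ratio of means for differences between compounds were not run, as 0 histone genes are shared by tables. No paired analysis was possible because the tables hold group means and no values per sample, and for the same reason no replicate could be left out. Depth is unknown, so the precision of genes under 1 FPKM rests on the q-value alone.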

Other observations

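The span of a gene in RefSeq differed between listed and other replication-dependent histone genes. Of the 8 such genes that span more than 1000 bases in RefSeq, which is longer than a coding sequence with its stem-loop, 7 were in the brazilin table (87.5%), against 20 of 60 shorter ones (33.3%). The 7 are H2BC12, H2BC5, H2BC4, H2BC21, H2BC18, H4C15 and H3C6, and the gene not listed is H3C4. Their median log2 fold change of 2.76 lies below the 3.20 of the 20 shorter genes, and their summed level was 97.1 FPKM untreated and 697 FPKM with brazilin. These values are a description of the annotation beside the table, chosen after the values were seen, and the mRNA form that gave the reads was not tested.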
